A study of Mus musculus with 9 samples.

Results

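The miR-101 family of the mouse was followed through RNA immunoprecipitation (RNA-IP) with Ago2 and with Sfpq. Its members were the rows named mmu-miR-101a-3p, mmu-miR-101a-5p, mmu-miR-101b-3p, mmu-miR-101b-5p and mmu-miR-101c (mmu, for mouse, is left off below), which are 5 of the 575 mature miRNAs listed in the Ago2 or the Sfpq table. All 5 were found in both tables. The family was chosen by its high ratios of RNA-IP to input with both proteins, so those ratios are given as a description and carry no test.

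A miRNA is cut from a hairpin precursor, and 1 of the hairpin's arms, the guide, is kept by an Argonaute protein such as Ago2 while the other arm, the passenger, is mostly lost. The guide pairs with target mRNAs through its seed, bases 2 to 8 from the 5′ end, and represses them. miR-101 is made from the 3p arm and is known as a repressor of Ezh2, the enzyme of the Polycomb complex that methylates histone H3, and of Ptgs2, the cyclooxygenase that is induced in inflamed macrophages. Sfpq is a nuclear RNA-binding protein that takes part in splicing and in paraspeckles.

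The mature sequences, credited to RefSeq on GRCm38.p6, are shown because the 3p members overlap almost base for base, which bears on how reads can be divided between them. Capitals mark the seed.
miR-101a-3p: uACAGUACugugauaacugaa
miR-101b-3p: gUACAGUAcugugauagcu
miR-101c: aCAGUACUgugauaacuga
miR-101a-5p: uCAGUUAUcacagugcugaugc
miR-101b-5p: uCGGUUAUcaugguaccgaugcu

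The whole of miR-101c, 19 bases, lies inside miR-101a-3p from its position 2 onward, so a read of miR-101c is also a read of a shortened miR-101a-3p. miR-101b-3p as annotated starts 1 base upstream of miR-101a-3p and, over the 18 bases that can be aligned, carries a single substitution, A16G, counted from the 5′ end of miR-101a-3p. The annotated seeds of these members are therefore the same stretch read in 3 different registers. The passenger arms have seeds of their own, CAGUUAU and CGGUUAU.

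The hairpins lie at 3 separate places of GRCm38, the assembly that mm10 names. Mir101a is on chromosome 4 from 101346945 to 101347027 on the minus strand, in an exon of the lincRNA E130102H24Rik. Mir101b is on chromosome 19 from 29135279 to 29135375 on the plus strand, in an intron of Rcl1, a gene of ribosomal RNA processing. Mir101c is on chromosome 9 from 3038669 to 3038743 on the minus strand, where GENCODE M21 places no other gene over it.

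Small RNAs were sequenced from 9 libraries, 3 each of input and of the RNA-IPs with Ago2 and with Sfpq. Input is the RNA of the extract without a pull-down. Ago2 was precipitated with a monoclonal antibody (clone 2D4) and Sfpq with a pair of antibodies. The labels give RAW 264.7 cells, a mouse macrophage-like line, for all groups and name no treatment. They also call the source a stem cell, and the design text names P19, an embryonal carcinoma line. The paper itself places the small RNA sequencing of both RNA-IPs in RAW 264.7 cells. In the input of the Ago2 table, 5 of the 6 macrophage and blood marker names were found and summed to 331690. Of this, miR-21a-5p made up 265164, miR-146a-5p 52710, miR-155-5p 12866, miR-142-3p 846 and miR-223-3p 103. The neuronal marker miR-9-5p was at 93.6. The 2 pluripotent stem cell marker names found, of 11, were both at 0 in the input. In the RNA-IPs they reached at most 2.38, for miR-302d-3p with Sfpq. These lists hold older and newer names of the same miRNA. No control antibody is among the libraries, so RNA that any pull-down would retain cannot be told apart from RNA held by Ago2 or Sfpq. Each group has 1 value per small RNA, the authors' mean signal over its libraries, and the input was scaled anew in each table. The values therefore have no SD, and intervals below are 95% exact intervals for counting error only, from the fewest reads that could give the value. In bulk signal, fewer molecules in every cell and fewer cells with the miRNA cannot be told apart.

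In the input the family held 0.0591% of the miRNA signal, nearly all of it in the 3p arms. miR-101b-3p had an input signal of 2562 in the Ago2 table, rank 70 of 548 mature miRNAs, and miR-101a-3p had 1055. miR-101c had 15.2 and rank 321. The passenger arms miR-101b-5p and miR-101a-5p had 11.8 and 5.70. The input of the Sfpq table gave the same order from the same libraries, with 2269 for miR-101b-3p, 931 for miR-101a-3p, 13.2 for miR-101c, 10.6 for miR-101b-5p and 5.07 for miR-101a-5p. miR-101b-3p stood first and miR-101a-3p second in every group.

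**Figure D1:**
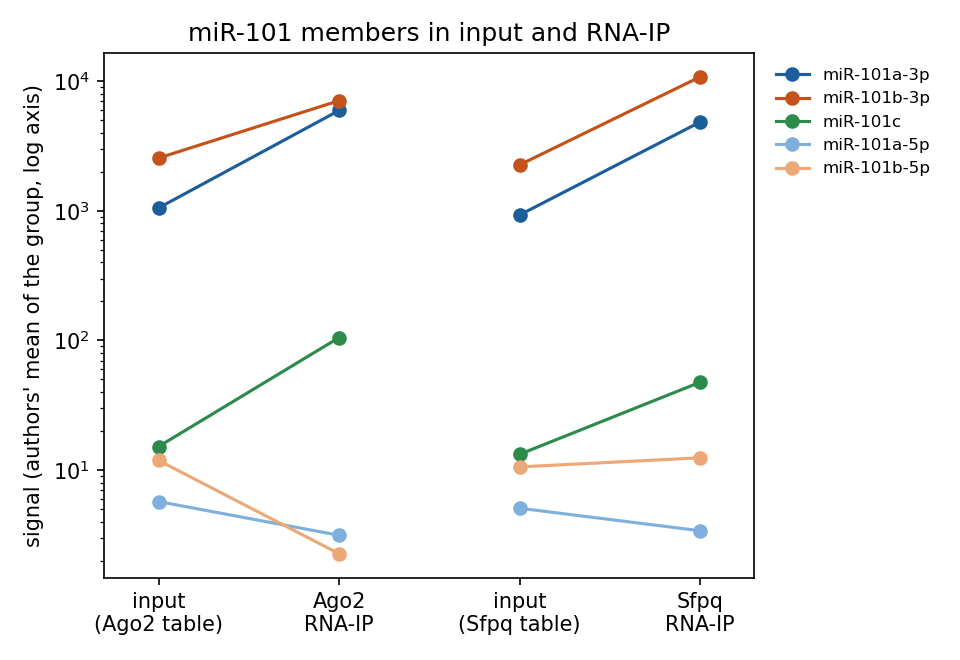
Signal of the 5 miR-101 members (log axis, the authors' mean over the libraries of a group) in the input and the RNA-IP of either table. Points joined by a line belong to 1 member in 1 table. The 3p members and miR-101c are higher in both RNA-IPs than in the input, while miR-101b-5p is at 2.26 with Ago2 and at 12.4 with Sfpq.

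To describe the loading of the family on Ago2, its RNA-IP was set against the input. The guide arm miR-101a-3p had a signal of 5969 with Ago2 and of 1055 before pull-down, a log2 ratio of 2.50 (interval 2.43 to 2.57). miR-101b-3p had 7105 against 2562, a log2 ratio of 1.47 (1.43 to 1.52). The 2 guide arms thus came close to each other in level with Ago2, although miR-101b-3p was the higher in the input. miR-101c, which cannot be told from shortened miR-101a-3p by sequence, had 105 against 15.2 and a log2 ratio of 2.79 (2.33 to 3.29). With a pseudocount of 10 its log2 ratio was 2.20. Summed, the family had 13184 against 3650, and it held 0.137% of the miRNA signal of this RNA-IP.

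The authors' scaling sets what counts as a ratio of 1, and on it the median mature miRNA at a mean level of 20 or more had a log2 ratio of 0.49 with Ago2 and 0.44 with Sfpq. Relative to that median, the Ago2 log2 ratios were 2.01 for miR-101a-3p, 2.30 for miR-101c and 0.98 for miR-101b-3p. In the order of the 302 mature miRNAs at that level, miR-101c was at place 3 with Ago2, miR-101a-3p at 6 and miR-101b-3p at 29. All 3 members at that level were more than 2-fold above input with Ago2, as were 23.8% of the mature miRNAs. The input of miR-101c is under 20, so miR-101c reached that level only through its RNA-IP signal. Its place and its call with Ago2 are therefore not independent of the minimum. With the ratio taken on shares of the miRNA signal, miR-101b-3p was at 0.83 with Ago2, so on that scale and relative to the median 2 of the 3 were past 2-fold, as were 19 and 25 of the 302 mature miRNAs. The 5p arms lie under a mean level of 20 and did not enter these counts. With no minimum, 3 of the 5 members were more than 2-fold above input with Ago2, where 23.6% of the mature miRNAs above 0 on both sides were, and 3 of 5 with Sfpq, where 23% were.

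With Sfpq the same 3 members were above the input. miR-101b-3p had a signal of 10844 with Sfpq and of 2269 before pull-down, a log2 ratio of 2.26 (interval 2.21 to 2.30). It was the highest value of the family in any group. miR-101a-3p had 4859 against 931, a log2 ratio of 2.38 (2.32 to 2.45). miR-101c had 47.6 against 13.2, a log2 ratio of 1.85 (1.35 to 2.38), which was 1.31 with a pseudocount of 10. The family summed to 15766 against 3228 and held 0.164% of the miRNA signal of the Sfpq RNA-IP.

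Relative to the median miRNA the Sfpq log2 ratios were 1.95 for miR-101a-3p, 1.82 for miR-101b-3p and 1.41 for miR-101c. In the order of 297 mature miRNAs at a mean level of 20 or more, miR-101a-3p was at place 8, miR-101b-3p at 10 and miR-101c at 18. All 3 were more than 2-fold above input with Sfpq, as were 23.6% of the mature miRNAs. For miR-101c this call carries no weight, and its place is not independent of the minimum level. At its input, any Sfpq signal that reached the minimum level was more than 2-fold above the input. Neighbours in that order were close: miR-542-3p at 2.28 stood just above miR-101b-3p and miR-1843b-5p at 2.26 just below. miR-101c stood between miR-3970 at 1.85 and miR-15b-5p at 1.84. With Ago2, miR-101a-3p stood between miR-181c-5p at 2.56 and miR-1843b-5p at 2.28, miR-101b-3p between miR-378d at 1.48 and miR-5107-5p at 1.46, and miR-101c between miR-5121 at 3.25 and miR-15a-3p at 2.70.

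**Figure D2:**
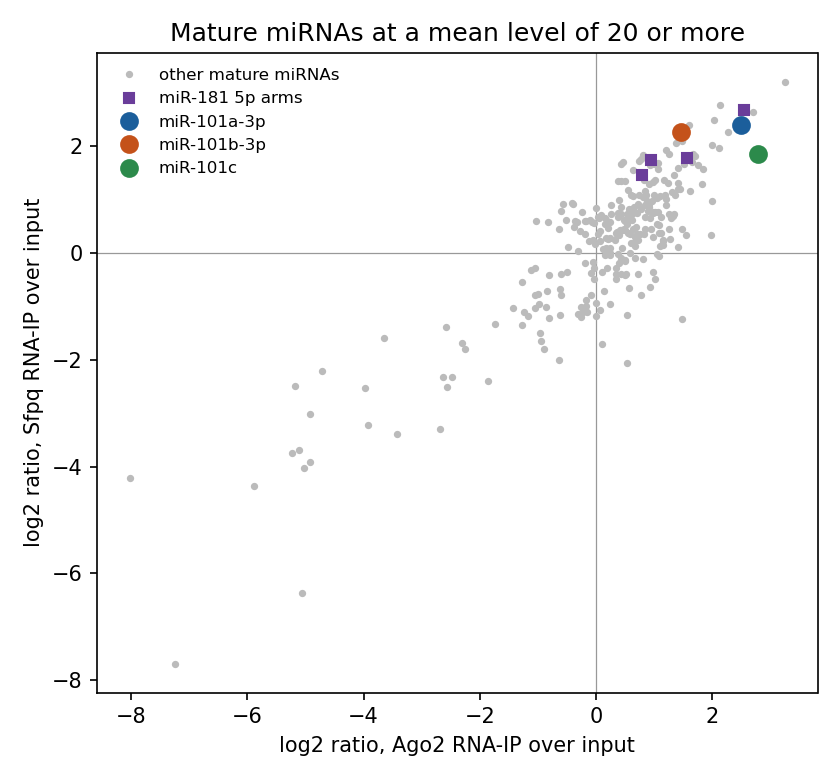
Log2 ratio of the Sfpq RNA-IP to input (y) against that of the Ago2 RNA-IP to input (x) for the 289 mature miRNAs at a mean level of 20 or more in both tables, with the miR-101 members and the miR-181 5p arms marked. The axes share the input libraries. miR-101a-3p, at 2.50 and 2.38, lies in the upper right corner with miR-181c-5p and other miRNAs such as miR-5121 and miR-15a-3p. miR-101c lies lower, at 2.79 and 1.85, and miR-101b-3p lies further left, at 1.47 and 2.26.

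The order of the members was not the same with the 2 proteins. The Sfpq log2 ratio minus the Ago2 log2 ratio was 0.79 for miR-101b-3p, -0.12 for miR-101a-3p and -0.95 for miR-101c. Over the 289 mature miRNAs at a mean level of 20 or more in both tables the median of this difference was 0.01, and the middle 90% ran from -1.20 to 1.28. miR-101b-3p was at place 38 from the Sfpq end and miR-101c at place 27 from the Ago2 end, so both were inside that range. As miR-101c reached the minimum level only through its RNA-IP signals, its place here is not independent of that minimum. On the authors' scale both log2 ratios were above 2 in 7 of the 289 miRNAs, and miR-101a-3p was the only member of the family among them. The others were miR-5121, miR-15a-3p, miR-181c-5p, miR-1843b-5p, miR-5117-3p and miR-365-3p. Relative to the median miRNA, miR-101a-3p was at 2.01 with Ago2 and 1.95 with Sfpq. On shares of the miRNA signal it was at 1.86 and 1.57, so on neither scale were both above 2.

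Proportions between members of 1 group do not depend on the scaling between groups. miR-101b-3p had 2.43 times the signal of miR-101a-3p in the input (interval 2.30 to 2.56) and 2.23 times with Sfpq (2.19 to 2.28). With Ago2 it had 1.19 times the signal of miR-101a-3p (1.17 to 1.21). On the log2 scale the proportion of miR-101b-3p to miR-101a-3p differed from that of the input by -1.03 with Ago2 and by -0.13 with Sfpq. These shifts are the differences between the ratios that chose the family, and the spread between libraries behind them is unknown.

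miR-101c had 1.44% of the signal of miR-101a-3p in the input of the Ago2 table, 1.77% with Ago2 and 0.980% with Sfpq. The input value rests on 42 reads, and its counting interval on the log2 scale was -6.60 to -5.68. That interval takes in the Ago2 value of -5.82 and overlaps the Sfpq interval of -6.91 to -6.44. The Ago2 interval, -5.99 to -5.67, did not overlap the Sfpq interval. Counting error alone is covered by these intervals, and the spread between libraries is unknown. How many reads of miR-101c also count toward miR-101a-3p was not tested, as the sequences of single reads are not used here. Another pair shows how the tables treat shared sequence. miR-199a-3p and miR-199b-3p have the same mature sequence, with the seed in capitals:
miR-199a-3p: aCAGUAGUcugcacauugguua
RefSeq gives this sequence 2 loci under the name miR-199a-3p and 1 under miR-199b-3p. The signal of miR-199a-3p was 2.00 times that of miR-199b-3p in both RNA-IPs and 2.01 times in both input columns, so the signal of 1 sequence appears under both names. The split between miR-101a-3p and miR-101c is uncertain too, since their sequences overlap.

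**Figure D3:**
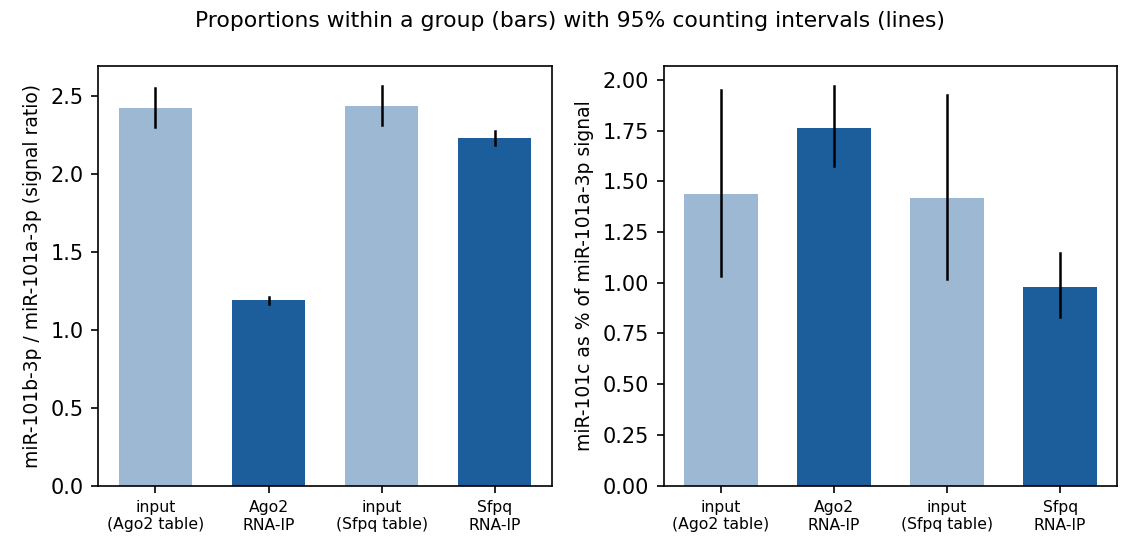
Signal of miR-101b-3p divided by that of miR-101a-3p (left) and signal of miR-101c in percent of miR-101a-3p (right) in each group, with 95% intervals for counting error only as lines. The left bar of the Ago2 RNA-IP, at 1.19, stands below the 3 others, which are between 2.23 and 2.44.

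The passenger arms are rare, and their values could be read back as whole reads. A low value is a sum of whole multiples of 3 steps, the signal of a single read in each of 3 libraries, and for both 5p arms and the input of miR-101c only 1 set of reads gave the deposited values once both input columns were used. Libraries are given in order of rising step, since the steps cannot be matched to replicate numbers, and the order does not pair libraries between groups. miR-101b-5p had 4, 3 and 2 reads with Ago2, 7, 14 and 8 in the input and 21, 16 and 7 with Sfpq. Scaled, its Ago2 libraries were at 2.46, 2.34 and 1.96 and its input libraries at 6.24, 16.9 and 12.4, so every Ago2 library was below every input library.

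Of 125 mature miRNAs whose reads could be recovered on both sides, 4.8% had all Ago2 libraries below all input libraries and 6.4% had them all above, as no 5p arm did. The log2 ratio of miR-101b-5p with Ago2 was -2.39 (interval -3.66 to -1.27). It was the 1 member more than 2-fold below input, as were 14.8% of the 454 mature miRNAs above 0 on both sides. With a pseudocount of 10 its log2 ratio was -0.83, no longer past 2-fold. With Sfpq the scaled libraries of miR-101b-5p were at 16.1, 14.0 and 7.13 against 5.26, 15.6 and 10.9 in the input of that table, and the groups overlapped. Of 122 mature miRNAs, 4.92% had all Sfpq libraries above the input and 4.1% all below, and neither 5p arm was among them. The log2 ratio was 0.23 (interval -0.48 to 0.96), and it was -0.20 relative to the median miRNA.

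Set on the scale of the Ago2 table, through the median input ratio of 1.14 between the tables, the Sfpq libraries of miR-101b-5p ran from 8.11 to 18.3 and the Ago2 libraries from 1.96 to 2.46. They did not overlap, as was so in this direction for 9.22% of 141 mature miRNAs with recovered reads. The passenger arm of miR-101b was thus at 44 reads with Sfpq against 9 with Ago2. miR-101a-5p did not share this. It had 13 reads in each group, split as 7, 4 and 2 with Ago2, 2, 5 and 6 in the input and 11, 2 and 0 with Sfpq, and its log2 ratios of -0.87 (interval -2.09 to 0.36) and -0.58 (-1.81 to 0.65) both have intervals that include 0.

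**Figure D4:**
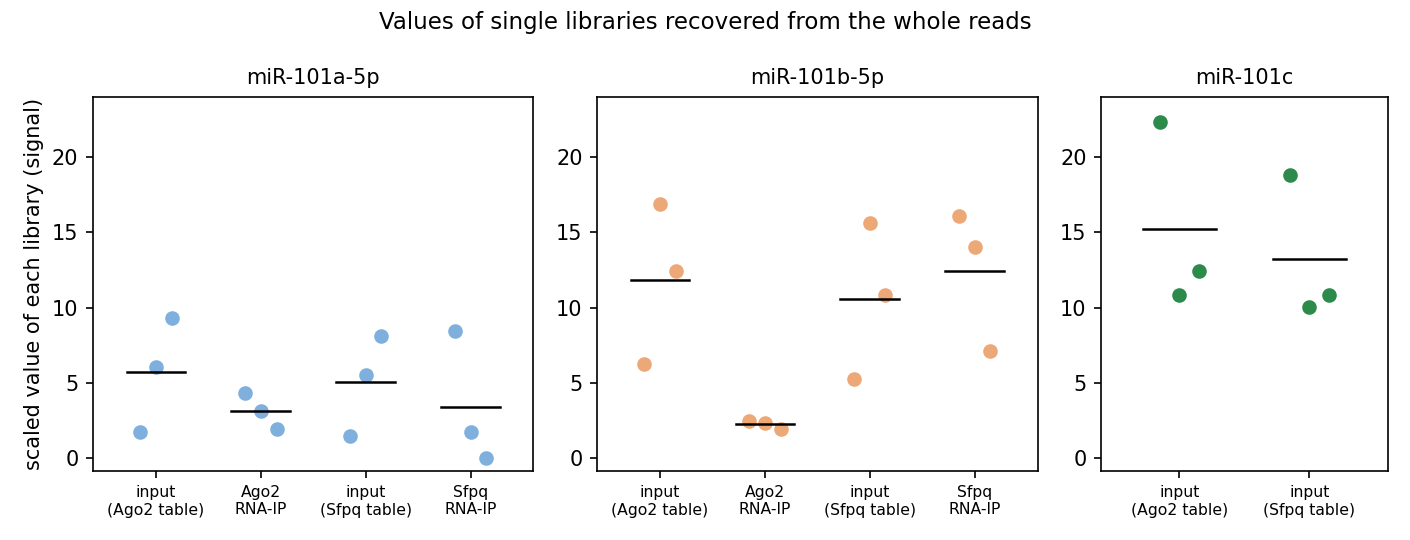
Scaled values of single libraries (points, in units of signal) for miR-101a-5p, miR-101b-5p and the input of miR-101c, recovered from the whole reads, with the deposited mean of the group as a line. For miR-101b-5p the 3 Ago2 libraries lie between 1.96 and 2.46, below all input libraries, and 1 input library of miR-101c, at 22.3, stands above the other 2.

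The input of miR-101c was recovered as 25, 9 and 8 reads, which scale to 22.3, 10.9 and 12.4 in the Ago2 table. One library thus held more than the mean of 15.2 and the others less, and the RNA-IP values of miR-101c could not be split in this way. Its total was between 325 and 506 reads with Ago2 and between 154 and 180 with Sfpq.

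Taken as a proportion of the arms, guide over passenger, miR-101a had 185 times as much 3p as 5p signal in the input (interval 108 to 348), 1906 times with Ago2 (1114 to 3580) and 1430 times with Sfpq (836 to 2687). For miR-101b the proportion was 216 in the input (150 to 323), 3150 with Ago2 (1659 to 6890) and 873 with Sfpq (650 to 1202). Both hairpins were more one-sided in either RNA-IP than in the input, which is a description only, since the 3p ratios that chose the family enter these proportions. On the log2 scale the proportion of the higher to the lower arm had a median of 3.97 in the input over 146 hairpins with both arms above 0, and miR-101b and miR-101a stood at 7.76 and 7.53, places 30 and 32. With Ago2, where the median was 4.59 over 150 hairpins, they stood at 11.62 and 10.90, places 11 and 19. With Sfpq miR-101a stood at 10.48, place 18, and miR-101b at 9.77, place 25, where the median was 4.45. The counting intervals of the 2 hairpins overlapped in the input and in both RNA-IPs, so the order between them is not resolved. The 5p arm of miR-101a rests on 13 reads in each group.

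The miRNAs nearest to a member by the pair of log2 ratios, over 2 comparisons that share the input, were named without regard to function. Nearest to miR-101a-3p were miR-1843b-5p (2.28 with Ago2 and 2.26 with Sfpq), miR-181c-5p (2.56 and 2.68) and miR-15a-3p (2.70 and 2.64). Nearest to miR-101b-3p were miR-542-3p (1.55 and 2.28), miR-450b-5p (1.49 and 2.10) and miR-340-5p (1.60 and 2.40). The nearest of all to miR-101c was miR-101a-3p, at a distance of 0.61, before miR-1843b-5p and miR-1843a-5p.

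The 5p arms of the miR-181 family, known from lymphocyte development, were set beside miR-101. Its member miR-181c-5p had a signal of 683 with Ago2 and 657 with Sfpq, and its input was 116 and 103. The more abundant miR-181a-5p and miR-181b-5p had log2 ratios of 1.57 and 0.95 with Ago2 and of 1.77 and 1.74 with Sfpq, and miR-181d-5p had 0.79 and 1.46. The log2 ratios with Ago2 thus ran from 0.79 to 2.56 over these miR-181 5p arms and from 1.47 to 2.79 over the miR-101 3p arms and miR-101c. The value of 2.79 is that of miR-101c, which was at 2.20 with a pseudocount of 10. With Sfpq they ran from 1.46 to 2.68 over the miR-181 5p arms and from 1.85 to 2.38 over the same miR-101 members. Of the miR-181 3p arms at a mean level of 20 or more in both tables, miR-181a-2-3p was at 1.41 with Ago2, miR-181a-1-3p at 0.38 and miR-181b-1-3p at -1.12.

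Bases 2 to 7 of miR-101a-3p occur within the first 9 bases of 6 of 1679 RefSeq mature miRNAs of the mouse. These are the 3 members just described, miR-199a-3p, miR-199b-3p and miR-144-3p, an erythroid miRNA, and 5 of the 6 are in the tables. miR-144-3p is listed in neither table. miR-199a-3p had a signal of 1726 with Ago2 against an input of 775, and of 794 with Sfpq against 677, so with Sfpq it was close to its input.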

How the data were processed

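Sequencing of the small RNA was by SOLiD, and the labels and the methods name different library kits. Per the study's methods, the omiRas web server did the mapping, the normalisation and the comparison to input, and LifeScope is also named for mapping. The submitters' processing notes name cutadapt and mm10. Which step made each value is not given in the sources used here. The authors deposited 1 signal per small RNA and group, a mean over 3 libraries, in an Ago2 table of 1825 and an Sfpq table of 1939 small RNAs. Their log2 ratios, p-values, false discovery rates and lists of selected small RNAs were not used.

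Log2 ratios were recomputed from the signals with Python 3.11.15, pandas 2.3.3, NumPy 2.4.6 and SciPy 1.17.1. No test was run, since the deposited values have 1 value per group. The low signals lay on sums of 3 steps, 0.205, 0.260 and 0.327 for Ago2, 0.256, 0.292 and 0.340 for Sfpq, 0.297, 0.402 and 0.517 in the input of the Ago2 table and 0.250, 0.371 and 0.452 in that of the Sfpq table. All 690, 805, 810 and 854 values above 0 and under 20 in these columns were whole reads on such steps to within the rounding of the files at 6 significant digits, with 677, 774, 727 and 664 of them in 1 way only. The recovery was tested on simulated data with equal mean reads in the 3 libraries and with 1 column at a time. The joint use of both input columns, which some input values needed, was therefore not tested. Depth of single libraries is otherwise unknown. Counting intervals are exact (Clopper-Pearson) on the reads of the 2 values compared, with the fewest reads that their steps allow.

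The members, lists and comparisons were chosen with earlier results of these data known, and the split into libraries after the values were seen. Named beside the members were the 3 nearest miRNAs by both ratios, the neighbours in order, the miR-181 family and miRNAs that share bases with the seed. Whether same-numbered RNA-IP and input libraries came from 1 extract, or from separate cultures, is not stated.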

Additional observations from a re-analysis of the deposited data

How the results depend on the processing

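No paired analysis was possible because the deposited values are group means, and the libraries recovered for the 5p arms and the input of miR-101c cannot be matched to replicate numbers. Leaving out a library was likewise not possible for the abundant members. Of 84 alternative values of the ratios and of their differences, 2 changed direction, both for miR-101b-5p with Sfpq. They were -0.58 on shares of the miRNA signal and -0.20 when centred on the median miRNA. A pseudocount added to both sides cannot change the direction of a ratio, so those alternatives could not have changed it. The count is therefore no measure of how firm the ratios are. The log2 ratio of the summed family, 1.85 with Ago2 and 2.29 with Sfpq, was 1.22 and 1.47 on shares of the miRNA signal, 1.36 and 1.85 when centred, and 2.03 and 2.11 with the input of the other table. The Sfpq minus Ago2 difference of the sum, 0.43, was 0.26 on shares and 0.26 with no input. The miRNAs more than 2-fold above input, 72 with Ago2 and 70 with Sfpq, were 19 and 20 on shares and 25 and 41 when centred, and 107 and 103 with no minimum level. Of all small RNAs the family held 0.0500% in the input, 0.134% with Ago2 and 0.158% with Sfpq. These shifts follow from the construction of the alternatives. With a pseudocount of 10 the difference for miR-101b-5p was 0.96 in place of 2.63. The reads behind the 5p arms, 9 to 44 in a group, limit what can be said of them.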
